A study of Mus musculus with 19 samples.

Results

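Ribosome footprints of mouse organoids grown from lung adenocarcinoma (LUAD) were compared with those of organoids from alveolar type 2 (AT2) cells, which make surfactant and renew the lung alveolus. The comparison took the 4 LUAD and the 3 AT2 footprint libraries, 7 of the 19 samples of the series. All 7 came from strain C57BL/6, were plated for 48 hours on plates washed with Matrigel, a basement membrane extract, in a lung organoid medium, and received 100 µM cycloheximide for 5 minutes before harvest. Cycloheximide halts elongating ribosomes, and both groups received it. The labels give no genotype, age, donor animal or clone for either group. They do not say that the libraries of a group came from separate cultures, so each p-value speaks only of the spread from library to library, which may be technical.

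A ribosome shields a short stretch of the mRNA it is reading from nuclease, and sequencing those stretches counts ribosomes per gene. Here they were collected with RiboLace, which pulls down ribosomes engaged in translation. The number of footprints of a gene depends both on how much of its mRNA there is and on how densely ribosomes sit on it, and the footprints alone do not tell these apart. AT2 cells rest on a basement membrane of type IV collagen and laminin, secrete surfactant through lysosome-related lamellar bodies and give rise to LUAD in mouse models.

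The AT2 libraries held 3030290, 3485751 and 3834358 estimated counts and the LUAD libraries 4803129, 14174981, 13338402 and 14249573, listed here and throughout in replicate order. From 66.4% to 70.0% of the counts lay on transcripts that the translated-ORF lists pair with a gene name. AT2 library 1 stood apart. Mettl26, a putative methyltransferase gene, took 52.1% of its paired counts, against 4.14% and 1.99% in AT2 libraries 2 and 3 and 0.261% to 1.37% in LUAD. The correlation of AT2 library 1 with the other AT2 libraries was 0.741 to 0.76, and that of those 2 with each other was 0.896. The first principal component of the deviations from the group means, with 61.4% of that spread, set AT2 library 1 and LUAD libraries 1 and 2 against AT2 libraries 2 and 3 and LUAD libraries 3 and 4. Of 11 fixed AT2 markers 7 were in the gene table, and their summed level was 1580 to 2950 CPM in AT2 and 290 to 401 CPM in LUAD. None of 9 fibroblast, 6 endothelial, 4 club or 5 basal markers was in the table, which holds no gene without a listed ORF, so no level can be given for them. The 2 of 13 macrophage and leukocyte markers in the table, Mrc1 and Cd14, were both higher in LUAD, and their sum went from a range of 8.68 to 8.89 CPM to one of 77.4 to 101 CPM. The part of other cells in the results below was not tested, and in bulk libraries fewer cells of a type and less RNA per cell cannot be told apart.

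Of 6811 genes tested, 1447 (21.2%) had an adjusted p under 0.05 in the quasi-likelihood test of edgeR. In LUAD 644 of them were higher (9.46% of the genes tested) and 803 lower (11.8%). The median log2 fold change over all genes was -0.02. Levels are given as counts-per-million (CPM) of the scaled library total, and log2 fold changes are LUAD against AT2 with their standard error (n = 3 and 4). That error was derived from the F statistic of the test, as the size of the log2 fold change over the square root of F. It therefore restates the test and is no separate measure of error. In 1438 of the 1447 genes the LUAD and AT2 libraries did not overlap, and 35.8% of all genes tested had no overlap. With scaling on all transcripts of the tables, the median log2 fold change moved by 0.17, with 865 higher and 611 lower calls, so every direction below is set against the bulk of genes that have a listed ORF. Leaving out AT2 library 1 gave 926 higher and 968 lower calls. Leaving out LUAD library 2, 3 or 4 gave 903, 838 and 853 calls in all. Without AT2 library 2, AT2 library 3 or LUAD library 1 there were 1162, 1147 and 1067. Calls over all genes thus drop too where family counts below drop without 1 of these libraries. Family counts of the main fit are to be read beside the 9.46% and 11.8% of all genes.

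**Figure D1:**
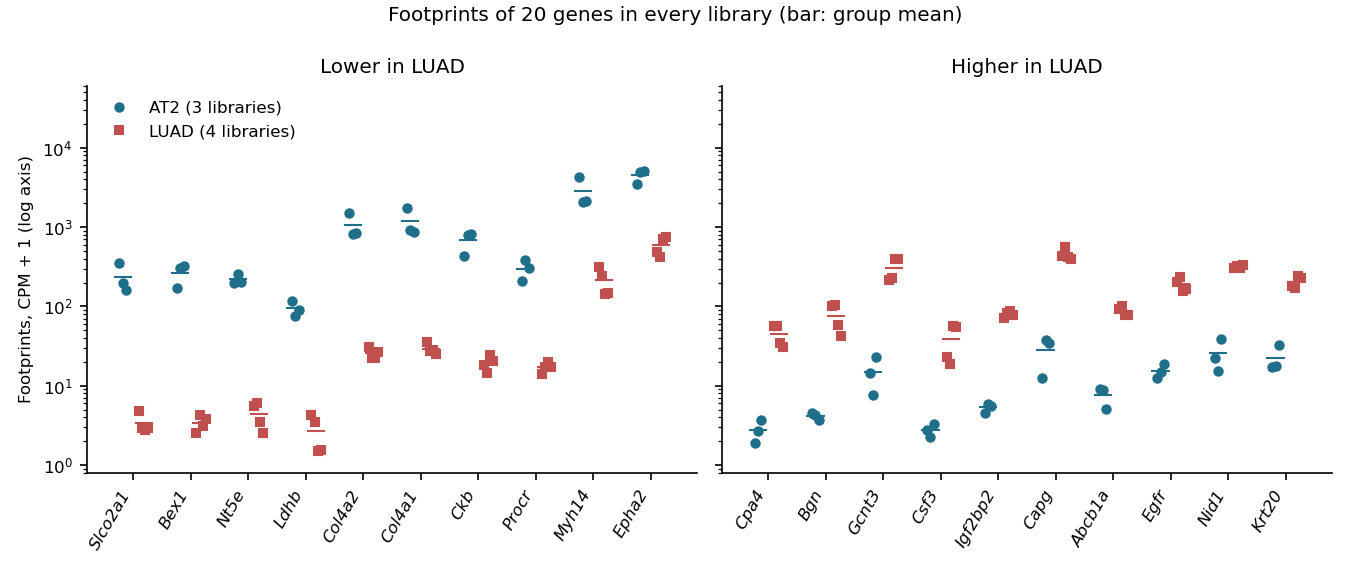
Footprint level (CPM + 1, log axis) of 10 genes lower and 10 genes higher in LUAD, with 1 point for each of the 3 AT2 and 4 LUAD libraries and a bar at each group's mean. The groups do not overlap for any of the 20 genes, and AT2 library 1 lies apart from the other AT2 libraries for several of them, such as Col4a1 and Bex1.

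Genes with large losses of footprints included surface proteins and enzymes of energy metabolism. Footprints of Slco2a1, a prostaglandin carrier (chromosome 9, 103007061 to 103096002), stood at 356, 196 and 159.6 CPM in AT2 and at 3.81, 1.97, 1.77 and 1.97 CPM in LUAD. Every LUAD library lay below 4 CPM and every AT2 library above 159 CPM. Slco2a1 fell by 6.71 on the log2 scale (SE 0.41, adjusted p = 0.000192). Nt5e, the surface enzyme CD73 that makes adenosine from AMP (chromosome 9, 88327609 to 88372089), stood at 195, 255 and 204 CPM in AT2 and at 4.57, 5.04, 2.47 and 1.5 CPM in LUAD (log2 fold change -6.03 ± 0.42, adjusted p = 0.000242). Bex1, a small adaptor protein gene of the X chromosome, stood at 171, 302 and 319 CPM in AT2 and at 1.52, 3.33, 2.07 and 2.81 CPM in LUAD (log2 fold change -6.70 ± 0.35, adjusted p = 0.000192). For both genes the LUAD libraries stayed at 5.04 CPM or below and every AT2 library at 171 CPM or above. Ckb, brain-type creatine kinase, fell from 679 ± 216 to 18.4 ± 4 CPM, and Ldhb, the lactate dehydrogenase subunit of oxidative tissues, fell from 93.4 ± 22 to 1.71 ± 1.4 CPM (SD, n = 3 and 4). Procr, the endothelial protein C receptor, fell from 298 ± 89.6 to 16.1 ± 2.5 CPM and Prnp, the prion protein gene, from 305 ± 12 to 19.5 ± 7.5 CPM. Dpp4, a surface peptidase, had 370 AT2 counts and 1 LUAD count. Its depth-scaled ratio was 2185, and the 95% interval from 389.7 to 86530 covers counting error only. Hspb8, a small heat shock protein, had 1110 AT2 and 3 LUAD counts (ratio 2185, from 746 to 10610).

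In the other direction, 26 called genes had no AT2 footprint count and 11 had 1 to 3, while 1 called gene had no LUAD count and 6 had 1 to 3. The AT2 libraries were less deep, and more listed genes come from LUAD lists alone (4187) than from AT2 lists alone (572). Both make a 0 easier to reach in AT2. The same counts over all genes tested are not given here, so nothing about the groups is read from these. AA467197, which encodes a short protein also known as NMES1, had 0 AT2 counts against 560 in LUAD and was at least 31.6-fold higher, with the whole AT2 group set to 3 counts as its floor. Aldh1l1, a folate-dependent dehydrogenase, and Cdh13, a cadherin held by a lipid anchor, also had 0 AT2 counts and were at least 21.7-fold and 15.2-fold higher. The call of Cdh13 was lost with the replicate number as a block (adjusted p = 0.075). Cpa4, a carboxypeptidase, stood at 0.889, 1.65 and 2.65 CPM in AT2 and at 55.6, 56.2, 33.2 and 29.4 CPM in LUAD (log2 fold change 4.53 ± 0.48, adjusted p = 0.000777). Aspa, which splits acetylaspartate, had no count in AT2 libraries 1 and 2 and 1.89 CPM in the third, and stood at 35, 34.9, 61.1 and 59.5 CPM in LUAD. Its log2 fold change was 5.25 without AT2 library 2, in place of 5.90, and without AT2 library 3 both remaining AT2 libraries were at 0. Homer2, a scaffold protein of synapses, had 3 AT2 and 690 LUAD counts (ratio 38.9, from 13.3 to 189). Hip1, which links clathrin coats to actin, had 1 and 668 (ratio 113, from 20.2 to 4475). Of the 644 higher genes 413 had an ORF in LUAD lists only, and of the 803 lower genes 340. Of all 7379 listed genes, before the filter on counts, 4187 did.

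Genes of the basement membrane and its assembly changed in both directions. Of 28 measured matrix genes 8 were higher and 12 lower (28.6% and 42.9%, beside 9.46% and 11.8% of all genes), with a median log2 fold change of -0.35. Col4a1 and Col4a2, the chains of the ubiquitous type IV collagen, lie head to head on chromosome 8 (11198423 to 11312889 and 11312805 to 11449287). Col4a1 footprints stood at 1756, 916 and 869 CPM in AT2 and at 34.2, 26.2, 26.8 and 23.8 CPM in LUAD, and those of Col4a2 at 1488, 827 and 845 CPM in AT2 and at 29.7, 21.6, 21.4 and 25.4 CPM in LUAD. Both fell to a like extent, with log2 fold changes of -5.41 ± 0.33 and -5.43 ± 0.30 (adjusted p = 0.000192 for both). Every LUAD library lay below 35 CPM, and AT2 library 1 was the highest AT2 library for both genes. Col4a5, a chain of a specialised type IV network, fell from 245 ± 154 to 3.75 ± 3.27 CPM, and its log2 fold change of -6.12 was -5.52 without AT2 library 1. Hspg2 (perlecan) fell from 727 ± 265 to 151 ± 41.3 CPM, Agrn (agrin) from 1654 ± 542 to 466 ± 196 CPM, and the laminin chain Lamc1 from 565 ± 119 to 172 ± 27.6 CPM. Fras1, a protein of embryonic basement membranes, fell from 81.9 ± 101 to 0.225 ± 0.208 CPM. The AT2 mean of Fras1 rested on library 1 at 198 CPM against 28.5 and 18.9 CPM, and without that library its log2 fold change went from -8.14 to -6.43.

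The matrix genes that rose included the protein that joins laminin to type IV collagen. Nid1 (nidogen; chromosome 13, 13437602 to 13512275) stood at 21.3, 14.5 and 38.2 CPM in AT2 and at 306, 326, 304 and 333 CPM in LUAD (log2 fold change 3.67 ± 0.34, adjusted p = 0.000559), and every LUAD library lay above every AT2 library. Fbln2, a fibulin, rose from 148 ± 57.2 to 1460 ± 358 CPM, Bgn, the small proteoglycan biglycan, from 3.17 ± 0.47 to 75.5 ± 31 CPM, and Efemp1, another fibulin-type protein, from 6.35 ± 2.59 to 65.6 ± 31.5 CPM. LUAD libraries 1 and 2 held more Fbln2 and Bgn than libraries 3 and 4, and for Efemp1 the order was the other way round. The laminin chains Lamb1 (log2 fold change 0.25 ± 0.27, adjusted p = 0.56) and Lama5 (-0.30 ± 0.46, adjusted p = 0.689) did not pass the test, and Lamb1 was -0.25 with library set 2 (AT2 libraries 2 and 3, LUAD libraries 3 and 4) alone.

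Enzymes that modify and fold collagen were lower with 1 exception. Of 9 measured, 5 fell and 1 rose, with a median log2 fold change of -1.37. P3h1, a prolyl hydroxylase (chromosome 4, 119232915 to 119248977), stood at 87.1, 34.7 and 32.1 CPM in AT2 and at 1.01, 3.25, 4.04 and 2.81 CPM in LUAD (log2 fold change -4.14 ± 0.54, adjusted p = 0.00203). Without AT2 library 1, the highest, it was -3.54. The lysyl hydroxylases Plod1 and Plod2 fell from 72.7 ± 13.3 to 13 ± 3.81 CPM and from 73.9 ± 28.9 to 13.6 ± 1.43 CPM, and the 2 subunits of prolyl 4-hydroxylase, P4ha1 and P4hb, from 303 ± 43.1 to 70.7 ± 20.2 CPM and from 1808 ± 68.9 to 698 ± 179.7 CPM. The exception was Serpinh1, the collagen chaperone of the endoplasmic reticulum, at 1.78, 4.55 and 8.32 CPM in AT2 and at 87.5, 83.4, 71 and 75.5 CPM in LUAD (log2 fold change 3.90 ± 0.41, adjusted p = 0.00075, and 4.52 without AT2 library 3). P4hb also serves as a protein disulfide isomerase. Bmp1, which trims procollagens, fell from 762 ± 351 to 67.6 ± 39.8 CPM. Among 12 metalloproteases and their inhibitors, the inhibitors Timp2 and Timp3 fell, Timp2 from 402 ± 92.7 to 68.1 ± 12.1 CPM and Timp3 from 176 ± 125 to 0.777 ± 0.476 CPM, while the collagenase Mmp13 rose from 0.768 ± 0.994 to 30 ± 10.2 CPM. In all 1 rose and 4 fell. Without AT2 library 1 it was 2 and 2, and 2 fell without LUAD library 2, 3 or 4. The log2 fold change of Timp3 was -6.98 in place of -7.69 without AT2 library 1. That of Mmp13 was 6.68 in place of 5.00 without AT2 library 3.

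**Figure D2:**
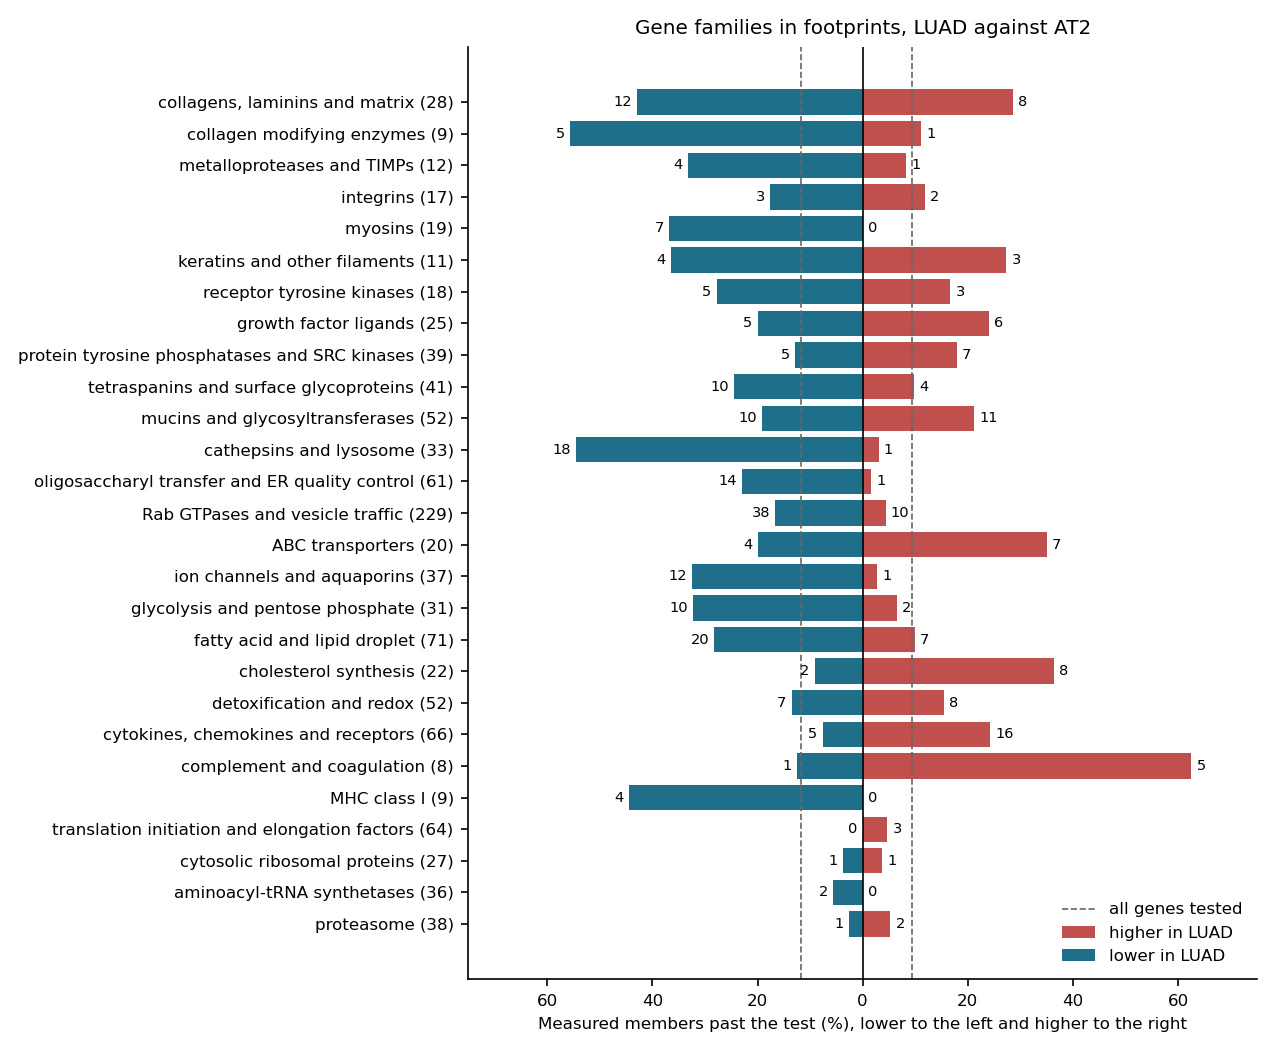
Share of the measured members of 27 gene families that passed the test, higher in LUAD to the right and lower to the left, with the number of genes at each bar, the number measured in brackets and dashed lines at the shares over all genes tested (9.46% and 11.8%). Collagen-modifying enzymes (55.6%) and lysosomal genes (54.5%) reach farthest on the lower side and complement and coagulation genes (62.5%) on the higher side, and translation factors, ribosomal proteins, aminoacyl-tRNA synthetases and the proteasome stay short of both lines.

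Growth factor receptors differed by member. Of 18 receptor tyrosine kinases 3 rose and 5 fell. Egfr, the epidermal growth factor receptor (chromosome 11, 16752203 to 16913907), stood at 11.6, 14.1 and 17.8 CPM in AT2 and at 203, 233, 157 and 167 CPM in LUAD (log2 fold change 3.69 ± 0.26, adjusted p = 0.000237). The LUAD libraries all lay above the AT2 libraries, with libraries 1 and 2 above 3 and 4. Axl, a receptor of the TAM family, rose from 45.8 ± 29.5 to 359 ± 80.7 CPM, and its ligand Gas6 fell from 75.6 ± 64.9 to 1.87 ± 1.35 CPM. The log2 fold change of Axl was 3.67 in place of 2.95 without AT2 library 3, and that of Gas6 -4.41 in place of -5.37 without AT2 library 1. Flt4, a receptor for vascular growth factors best known from lymphatic endothelium, rose from 13.3 ± 9.51 to 102 ± 29.9 CPM (3.60 on the log2 scale without AT2 library 3, 2.87 with it). Epha2, an ephrin receptor (chromosome 4, 141301221 to 141329384), stood at 3449, 4916 and 5045 CPM in AT2 and at 484, 417, 702 and 754 CPM in LUAD (log2 fold change -2.92 ± 0.28, adjusted p = 0.000571). Without LUAD library 3 or 4, 2 of the receptors rather than 5 passed as lower, and without AT2 library 2, 3. With scaling on all transcripts 4 rose and 3 fell. Met (0.84 ± 0.30, adjusted p = 0.0838), Erbb2 (0.20 ± 0.35, adjusted p = 0.729) and Igf1r (0.20 ± 0.46, adjusted p = 0.791) did not pass.

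Secreted ligands and signalling adaptors moved both ways as well. Of 25 growth factors and their binding proteins 6 rose and 5 fell, and 6 and 2 with scaling on all transcripts. Tgfb2, a TGF-beta ligand, stood at 129.8, 60.8 and 58.2 CPM in AT2 and at 1.78, 0.769, 1.77 and 1.59 CPM in LUAD (log2 fold change -5.81 ± 0.46, adjusted p = 0.000337), and Tgfb3 fell from 229 ± 119.8 to 14.6 ± 2.32 CPM. Pgf, placental growth factor, rose from 4.83 ± 2.56 to 69 ± 8.96 CPM, and Igfbp3, which binds insulin-like growth factors, from 7.77 ± 8.42 to 153 ± 39.4 CPM. Without AT2 library 3 their log2 fold changes were 4.43 and 5.57, in place of 3.81 and 4.17. Without AT2 library 2, or without any 1 of LUAD libraries 2, 3 and 4, 2 rather than 5 members of the family passed as lower, and 3 without LUAD library 1. Without AT2 library 3 the counts were 3 higher and 3 lower. Wls, which carries WNT proteins to the surface, fell from 432 ± 34.9 to 124 ± 50 CPM. Among 39 tyrosine phosphatases and SRC-type kinases 7 rose and 5 fell (17.9% and 12.8%, beside 9.46% and 11.8% of all genes). With scaling on all transcripts 9 rose and 4 fell. The receptor-type Ptprm was lower (from 109.7 ± 65.7 to 6.3 ± 1.53 CPM) and the cytosolic Ptpn13 higher (from 198 ± 80.9 to 755 ± 144 CPM). Tns4, a tensin of focal adhesions, rose from 22 ± 12.4 to 329.9 ± 41 CPM. The insulin receptor substrates parted, with Irs1 at 173, 86 and 110 CPM in AT2 and at 45.2, 36.9, 20.5 and 21.9 CPM in LUAD (log2 fold change -1.99 ± 0.36, adjusted p = 0.00768) and Irs2 higher (1.18 ± 0.33, adjusted p = 0.039). The call of Irs2 was lost without any 1 of 6 libraries (adjusted p from 0.061 to 0.109). Likewise the neuropilins, coreceptors for semaphorins and vascular growth factors, parted. Nrp1 fell from 258 ± 70.8 to 40 ± 4.75 CPM and Nrp2 rose from 37.7 ± 14.3 to 106 ± 32.7 CPM (adjusted p = 0.0179, and 0.064 and 0.0621 without AT2 library 2 or 3).

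**Figure D3:**
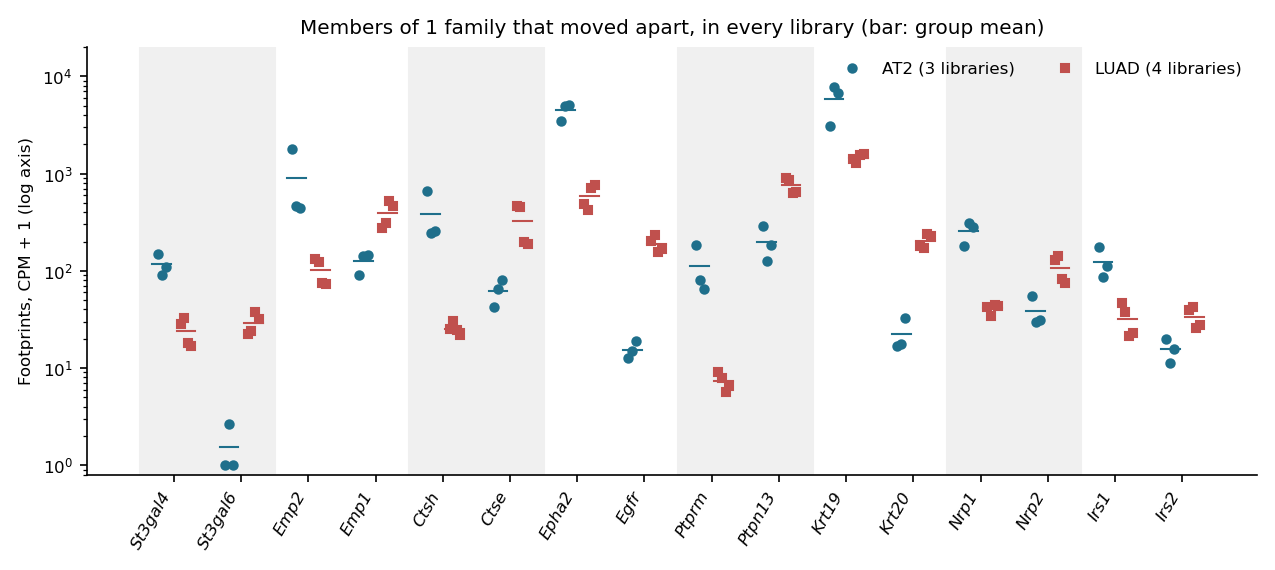
Footprint level (CPM + 1, log axis) in every library for 8 pairs of genes from 1 family each, with the lower gene on the left and the higher gene on the right of each shaded or unshaded field and a bar at each group's mean. In each field the LUAD points lie below the AT2 points for the left gene and above them for the right gene. The pairs were picked because their members moved in opposite directions, so this contrast is no result about their families.

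Myosins, the motors that pull on actin, fell or did not pass the test. Of 19 myosin genes 7 fell and none rose, with a median log2 fold change of -0.94, and 1 rose without AT2 library 1. In RNA 10 of these genes were lower and none higher, beside 18.1% and 19.1% of all genes tested in RNA. The nonmuscle myosin heavy chains Myh9, Myh14 and Myh10 all fell. Myh14 (chromosome 7, 44605803 to 44670872) stood at 4262, 2065 and 2152 CPM in AT2 and at 311, 242, 144 and 148 CPM in LUAD (log2 fold change -3.74 ± 0.40, adjusted p = 0.000825). Myh9 fell from 12830 ± 1219 to 4267 ± 854 CPM, and Myh10 from 238 ± 13.5 to 124 ± 11.9 CPM. Of 11 keratin and other filament genes 3 rose and 4 fell, all 7 of them keratins. Of the keratins of simple epithelia Krt8 fell from 11680 ± 4518 to 3136 ± 234 CPM, its partner Krt18 from 9794 ± 5201 to 2705 ± 118 CPM, Krt19 from 5863 ± 2445 to 1451 ± 135 CPM and Krt7 from 9484 ± 1637 to 5069 ± 669.8 CPM. For these 4 keratins AT2 library 1 was the lowest AT2 library, and it still lay above every LUAD library. Krt20, a keratin of gut and bladder epithelium, rose, at 16, 16.5 and 31.4 CPM in AT2 and at 179.6, 170.2, 239.7 and 225 CPM in LUAD (log2 fold change 3.23 ± 0.31, adjusted p = 0.000571). Krt4 and Krt23 also rose, Krt4 from 2.52 ± 1.77 to 16.4 ± 6.29 CPM and Krt23 from 53.6 ± 3.09 to 102 ± 10.9 CPM. The call of Krt7 was lost without any 1 library other than AT2 library 1 (adjusted p from 0.0518 to 0.0804), and that of Krt4 without AT2 library 2 or LUAD library 3 or 4 (adjusted p = 0.0521, 0.0709 and 0.0669). Without AT2 library 3 the log2 fold change of Krt4 was 3.52 in place of 2.65. Krt23 (log2 fold change 0.93 ± 0.18, adjusted p = 0.00898) lost its call with the replicate number as a block (adjusted p = 0.0553).

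Capg, which caps actin filaments, rose from 27.5 ± 13.9 to 449 ± 70.1 CPM, and Parvb, an integrin-linked adaptor, from 9.4 ± 5.12 to 164 ± 19.4 CPM. Itga2, the integrin subunit that binds collagen and laminin (chromosome 13, 114833081 to 114932100), stood at 114, 307 and 349 CPM in AT2 and at 1222, 1456, 1140 and 1134 CPM in LUAD (log2 fold change 2.27 ± 0.38, adjusted p = 0.0054). Of 17 integrin genes 2 rose and 3 fell (11.8% and 17.6%, beside 9.46% and 11.8% of all genes). There were 4 higher and 2 lower without AT2 library 1, and 1 lower without AT2 library 2 or any 1 LUAD library. With scaling on all transcripts 2 rose and 1 fell. Lgals1, a secreted lectin, rose from 49.1 ± 22.8 to 499 ± 38 CPM, and Anxa1, an annexin that binds membranes under calcium, fell from 3356 ± 1039 to 1012 ± 144 CPM.

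At the cell surface and in its sugar coat, some members of the same family rose and others fell. Of 52 mucin and glycosyltransferase genes 11 rose and 10 fell, and the median was -0.19. Gcnt3, which starts branches on mucin sugar chains (chromosome 9, 70031495 to 70039890), stood at 13.3, 6.61 and 22.3 CPM in AT2 and at 214, 225, 392 and 389.8 CPM in LUAD (log2 fold change 4.42 ± 0.48, adjusted p = 0.00089, and 5.03 without AT2 library 3). Muc20, a membrane mucin, had 3 AT2 and 983 LUAD counts (ratio 55.5, from 18.9 to 269). The sialyltransferases that cap galactose differed, with St3gal4 lower (from 116 ± 29.2 to 22.9 ± 7.8 CPM) and St3gal1 higher (from 8.09 ± 3.08 to 40.8 ± 5.08 CPM). St3gal6 was 0 CPM in AT2 libraries 1 and 3 and 1.65 CPM in the second, against 21.3, 23.1, 36.9 and 31.1 CPM in LUAD (adjusted p = 0.00394). Without AT2 library 3 its log2 fold change was 4.72 in place of 5.43, and without AT2 library 2 the remaining AT2 libraries were at 0. St8sia6, which adds sialic acid to sialic acid, fell from 107 ± 55.8 to 10.7 ± 1.3 CPM. The family's lower count was 6, 5 and 6 without AT2 library 2, LUAD library 3 and LUAD library 4, and its higher count 7 without AT2 library 2 or LUAD library 2. Of 41 tetraspanins and surface glycoproteins 4 rose and 10 fell. Cd81, a tetraspanin, stood at 581, 811 and 661 CPM in AT2 and at 176, 160.4, 149 and 150.3 CPM in LUAD (log2 fold change -2.11 ± 0.18, adjusted p = 0.000426). Prom1, the surface protein CD133, rose from 15 ± 15.6 to 321 ± 74.1 CPM, with a log2 fold change of 5.80 in place of 4.35 without AT2 library 3. Emp2 fell from 895 ± 767 to 100.3 ± 31.9 CPM while its relative Emp1 rose from 125 ± 30.4 to 389 ± 118 CPM, and without AT2 library 1 the log2 fold change of Emp2 was -2.19 in place of -3.16. Cldn6, a tight junction protein of embryonic epithelia, rose from 19.1 ± 9.56 to 269.9 ± 44.1 CPM.

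Genes of the lysosome, where proteins, lipids and sugar chains are broken down, were mostly lower. Of 33 measured lysosomal genes 18 fell and 1 rose, with a median log2 fold change of -0.94. In RNA 21 of them were lower and 2 higher, beside 18.1% and 19.1% of all genes tested in RNA. Ctsh, a cathepsin that also trims surfactant proteins (chromosome 9, 90054267 to 90076095), stood at 655, 244 and 258 CPM in AT2 and at 24.1, 29.6, 23.7 and 20.6 CPM in LUAD (log2 fold change -3.97 ± 0.39, adjusted p = 0.000587, and -3.36 without AT2 library 1). Scarb2, a membrane protein of lysosomes, stood at 205, 181 and 172 CPM in AT2 and at 52.5, 54.4, 59.5 and 58 CPM in LUAD (log2 fold change -1.73 ± 0.16, adjusted p = 0.000488). The protease Ctsd fell from 639 ± 206 to 241 ± 35.8 CPM, and Ctsz from 706 ± 204 to 224 ± 24.2 CPM. The glycosidases fell too, Fuca1 from 81.6 ± 9.93 to 19.4 ± 2.36 CPM and Neu1 from 260.5 ± 130.2 to 69.3 ± 22.9 CPM. Ctse, an aspartic protease of gastric epithelium, was the gene that rose, at 41.8, 64.1 and 79 CPM in AT2 and at 467, 447, 195 and 189 CPM in LUAD (log2 fold change 2.38 ± 0.44, adjusted p = 0.00757). It was higher in LUAD libraries 1 and 2 than in libraries 3 and 4. Without LUAD library 1, 3 or 4 the number of lower genes was 11, 9 and 9.

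Among other stations of the secretory route, counts leaned to lower, and in vesicle traffic the lean depended on the libraries and the scaling. Of 61 genes of N-glycosylation and quality control in the endoplasmic reticulum 14 fell and 1 rose. Edem2, which marks misfolded glycoproteins for disposal, stood at 192, 183 and 193 CPM in AT2 and at 43.6, 37.7, 37.9 and 35.2 CPM in LUAD (log2 fold change -2.30 ± 0.16, adjusted p = 0.000237). Of 229 genes of vesicle traffic 38 fell (16.6%) and 10 rose (4.37%). With AT2 libraries 1 to 3 and LUAD libraries 1 to 4 left out in turn, the number that fell was 40, 30, 26, 25, 20, 17 and 17 and the number that rose 17, 10, 10, 8, 6, 5 and 4. Under the same fits the share that fell was 17.5%, 13.1%, 11.4%, 10.9%, 8.93%, 7.52% and 7.52%, against 13.9%, 9.42%, 9.29%, 8.8%, 7.92%, 7.11% and 7.24% of all genes tested. Without LUAD library 3 or 4 the share of vesicle traffic genes that fell thus lay near that of all genes. With scaling on all transcripts 18 rose and 24 fell, when 12.7% and 8.97% of all genes did. Among genes with an ORF in an AT2 list 11 of 113 rose and 11 fell, and with the replicate number as a block 16 fell (6.99%, against 7.36% of all genes). Of 9 MHC class I genes 4 fell and none rose. H2-D1 fell from 1113 ± 1.71 to 367 ± 24 CPM, and genes of this family share reads with near-identical copies, so that single members are uncertain.

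Transporters moved both ways and ion channels were more often lower than higher. Of 20 ABC transporters 7 rose and 4 fell. Abcb1a, a drug efflux pump, stood at 8, 7.86 and 4.16 CPM in AT2 and at 90.8, 101, 77.1 and 77.3 CPM in LUAD (log2 fold change 3.73 ± 0.31, adjusted p = 0.000375). Its close copy Abcb1b rose from 39.3 ± 22.6 to 144 ± 8.61 CPM, and reads shared by the 2 copies make the split between them uncertain. Abcc3, an exporter of organic anions, rose from 28.4 ± 7.06 to 229.6 ± 23.5 CPM. Of 37 ion channels and aquaporins 12 fell and 1 rose, with Kcnn3, a calcium-activated potassium channel, at 138, 107 and 121 CPM in AT2 and at 11.7, 17.7, 7.2 and 9.76 CPM in LUAD (log2 fold change -3.39 ± 0.32, adjusted p = 0.000571) and Ano1, a calcium-activated chloride channel, from 395 ± 153 to 133 ± 20.3 CPM. Without LUAD library 3 or 4 the number that fell was 4, and it was 8 without LUAD library 1 or 2. The number that rose was 3 without AT2 library 1 and 0 without any other 1 library. Slc39a8, a zinc and manganese importer, fell from 146 ± 68.3 to 19.1 ± 3.55 CPM. Of 17 amino acid transporters 2 rose and 2 fell (11.8% each), with a median log2 fold change of -0.39. The carriers that rose were Slc38a2 at 509, 554 and 529 CPM in AT2 and at 1194, 1410, 1287 and 1276 CPM in LUAD (log2 fold change 1.28 ± 0.17, adjusted p = 0.00203) and Slc7a1, from 41.9 ± 9.27 to 93.5 ± 6.78 CPM. Those that fell were Slc38a1, from 129 ± 10.4 to 47.6 ± 12.6 CPM, and Slc38a10, from 38.3 ± 13.5 to 9.71 ± 3.06 CPM. In RNA neither Slc38a2 nor Slc7a1 passed (log2 fold changes 0.46 and 0.55, adjusted p = 0.0952 and 0.132).

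In metabolism, lipid and sugar enzymes were more often lower than higher, and sterol enzymes more often higher. Of 71 genes of fatty acid and lipid droplet metabolism 20 fell and 7 rose. Scd1, which desaturates fatty acids, stood at 1263, 979.7 and 919 CPM in AT2 and at 288, 270.3, 237 and 237 CPM in LUAD (log2 fold change -2.03 ± 0.19, adjusted p = 0.000559). Sgms2, a sphingomyelin synthase, rose from 10.2 ± 3.89 to 52.2 ± 3.35 CPM. Without LUAD library 2, 3 or 4 the number that fell was 13, 11 and 12, and 4 rose. Of 31 genes of glycolysis and the pentose phosphate route 10 fell and 2 rose, while Pkm (-0.34 ± 0.30, adjusted p = 0.471) and Hk2 (0.51 ± 0.35, adjusted p = 0.345) did not pass. Of 22 sterol synthesis genes 8 rose (36.4%) and 2 fell, with 5 higher without AT2 library 2 or 3 and 4 higher without LUAD library 2, 3 or 4. Fdft1, squalene synthase, stood at 137, 139 and 166 CPM in AT2 and at 333, 354, 358 and 363 CPM in LUAD (log2 fold change 1.26 ± 0.16, adjusted p = 0.00194). Aco1, which switches between an aconitase and an iron-sensing RNA-binding protein, fell from 274 ± 43.7 to 69 ± 14.3 CPM. Glul, glutamine synthetase, rose from 31.3 ± 7.44 to 117 ± 30.4 CPM, and Cth, which makes cysteine, from 2.73 ± 1.24 to 19.7 ± 2.46 CPM.

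Among genes of oxidant production and detoxification, a pair of neighbours rose together. Of 52 genes of this family 8 rose and 7 fell (15.4% and 13.5%, beside 9.46% and 11.8% of all genes), with 13 lower without AT2 library 1. Duox2, a dual oxidase that makes hydrogen peroxide at epithelial surfaces, had 2 AT2 and 1173 LUAD counts. The ratio was 99.3, and counting error alone allows 27.4 to 821. It stood at 0.889, 0 and 0.378 CPM in AT2 and at 34.5, 23.2, 35 and 38.5 CPM in LUAD (adjusted p = 0.000612). Duoxa2, its maturation factor, stood at 0, 0 and 2.27 CPM in AT2 and at 6.6, 8.63, 23.2 and 21.3 CPM in LUAD (adjusted p = 0.0361). AT2 library 3 carried all of the AT2 counts of Duoxa2, and its call was lost without AT2 library 2 or LUAD library 2, 3 or 4 (adjusted p = 0.0724, 0.0622, 0.0977 and 0.0935). The outer ends of the 2 genes lie head to head on chromosome 2 of GRCm38.p6 (the build also called mm10), with 159 bases between them. The sequence between them is shown because both genes rose and the starts face away from each other. It was read on the plus strand at chr2:122298741-122298899, with Duox2 leaving to the left and Duoxa2 to the right, and capitals mark the TATA box, searched as TATAAA, and the GC box, which was searched on both strands, like all motifs, as GGGCGG.
Duox2 to Duoxa2: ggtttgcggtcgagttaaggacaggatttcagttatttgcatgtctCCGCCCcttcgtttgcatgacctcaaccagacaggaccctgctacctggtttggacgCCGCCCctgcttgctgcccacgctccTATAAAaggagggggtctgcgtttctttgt
It held 1 match to the TATA box and 2 to the GC box. No match was found to the CCAAT box or to the cyclic AMP response element, searched as TGACGTCA. In the last 159 bases before 32851 RefSeq starts of the same build, the TATA box was found in 7.95%, the GC box in 29.2%, the CCAAT box in 25.4% and the response element in 1.39%. Gsta4, a glutathione transferase, rose from 26.4 ± 13.8 to 175 ± 34.2 CPM.

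Some genes start back to back with a neighbour. Of 249 pairs of tested genes with starts facing away from each other within 1000 bases, or overlapping by up to 200, 10 had both members called (4.02%), 59 exactly 1 and 180 none. Of the 498 members of these pairs 79 were called (15.9%), beside 21.2% of all genes tested, and nothing about the pairs is read from these counts. In 9 of the 10 both members changed in the same direction, the type IV collagen and dual oxidase pairs among them. Over all 249 pairs 138 had log2 fold changes of the same sign. The overlapping starts of such pairs can share reads in counting without strand, and the sources used here do not give whether strand was used.

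Complement, clotting and cytokine genes, which here include membrane and intracellular proteins beside secreted ones, were more often higher than lower. Other immune families were not. Of 30 interferon, STAT and IRF genes 5 rose and 7 fell (16.7% and 23.3%, beside 9.46% and 11.8% of all genes). The MHC class I genes, given above, had 4 lower of 9 and none higher. Of 8 complement and coagulation genes 5 rose and 1 fell, with 3 higher without AT2 library 2 or 3 or LUAD library 1, 2 or 3 and none lower without any 1 library other than AT2 library 1. C3, the central complement protein (chromosome 17, 57203967 to 57228136), stood at 30.2, 43.4 and 37.4 CPM in AT2 and at 411, 418, 199 and 194 CPM in LUAD (log2 fold change 3.03 ± 0.38, adjusted p = 0.00168). Thbd, thrombomodulin, rose from 7.29 ± 6.76 to 100.2 ± 30.6 CPM, with a log2 fold change of 4.53 in place of 3.65 without AT2 library 3. Of 66 cytokine, chemokine and receptor genes 16 rose and 5 fell. Without LUAD library 3 the counts were 10 and 2, and 2 or 3 fell without any other library except AT2 library 1. With scaling on all transcripts 18 rose and 2 fell. Csf3, granulocyte colony-stimulating factor, stood at 1.78, 1.24 and 2.27 CPM in AT2 and at 22.1, 17.8, 56.1 and 53.7 CPM in LUAD (log2 fold change 4.39 ± 0.63, adjusted p = 0.00291). LUAD libraries 3 and 4 held more of it than libraries 1 and 2. The 2 macrophage markers in the table rose with these genes (above), and their part in this result was not tested. Plscr1, an interferon-induced membrane protein, rose from 163 ± 64.2 to 686 ± 49.5 CPM. Gsdmd, the pore protein of pyroptosis, was at 0 CPM in AT2 libraries 1 and 2 and 3.78 CPM in the third, against 50.2, 52.9, 53.7 and 50.5 CPM in LUAD. Its log2 fold change was 5.08, and 4.43 without AT2 library 2.

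Among regulators, Hmga1, an architectural chromatin protein, rose from 36.4 ± 4.59 to 165 ± 43.1 CPM. Elf3, a transcription factor of epithelia (chromosome 1, 135253574 to 135258472), stood at 42.7, 56.6 and 53.7 CPM in AT2 and at 204, 199.7, 231 and 236 CPM in LUAD (log2 fold change 2.09 ± 0.19, adjusted p = 0.000469), and its relative Ets1 rose from 24.1 ± 6.62 to 78.8 ± 7.63 CPM. Of 70 lineage transcription factors 13 rose and 7 fell (18.6% and 10%, beside 9.46% and 11.8% of all genes), with 8 higher without AT2 library 2 and 7 without LUAD library 2. Ankrd1, a muscle and YAP target gene, rose from 636 ± 208 to 2232 ± 115 CPM. Eif5, a translation initiation factor, rose from 212 ± 51.6 to 726 ± 116 CPM. Of 64 translation factors 3 rose, Eif5 among them, and none fell. Of 27 cytosolic ribosomal protein genes 1 rose and 1 fell, of 53 mitochondrial ones 1 rose and 2 fell, and of 38 proteasome genes 2 rose and 1 fell. No aminoacyl-tRNA synthetase of 36 rose and 2 fell. In the main fit these shares lie under those of all genes tested (9.46% and 11.8%), and with any 1 library left out each count lay between 0 and 6. The highest count was that of synthetases without AT2 library 1, where 6 fell, a larger share than the 13.9% of all genes that fell in that fit. When the 2 library sets, which were drawn from these libraries, entered the fit as a term, 24 translation factors rose and 2 fell, and 13 proteasome genes rose and 4 fell. Under that fit 10 cytosolic ribosomal protein genes rose and 2 fell, 7 mitochondrial ones rose and 6 fell, and 8 synthetases rose and 2 fell. Of all genes 20.7% rose and 21.4% fell under it. The shares that rose among translation factors, proteasome genes and cytosolic ribosomal protein genes thus lay above that of all genes. The share of synthetases that rose lay near it and that of mitochondrial ribosomal protein genes under it. In each of these families the share that fell lay under that of all genes.

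RNA libraries of the same organoid kinds showed the same direction for most called genes. Of the 1447 genes 1440 were tested in RNA, where 37.1% of 6937 genes passed. In 1359 (94.4%) the RNA difference had the same sign, and 1027 (71.3%) passed in the same direction. Of the genes not called in footprints 28.6% passed in RNA. Only 4 genes passed both tests in opposite directions. Arglu1, a splicing-related coactivator, stood at 244, 161 and 183 CPM in AT2 and at 98.5, 89.5, 88.2 and 100.3 CPM in LUAD in footprints and at 75.6, 81.6 and 71.4 CPM in AT2 and 115, 99, 105 and 113 CPM in LUAD in RNA. Cactin, a spliceosome protein, stood at 120, 112 and 156 CPM in AT2 and at 61.7, 61, 64.3 and 62.4 CPM in LUAD in footprints and at 61.3, 61.3 and 62.1 CPM in AT2 and 120.2, 102, 91.4 and 112 CPM in LUAD in RNA. In both genes the 2 assays moved apart without overlap between groups. Their footprint log2 fold changes were -1.05 ± 0.19 and -1.06 ± 0.18 (adjusted p = 0.00654 and 0.00522) and their RNA values 0.50 and 0.79 (adjusted p = 0.0282 and 0.00641). Set, a histone chaperone, had -1.15 ± 0.25 in footprints and 1.08 in RNA, and lost its footprint call without AT2 library 3 or LUAD library 2 (adjusted p = 0.0517 and 0.0514). Ppp3r1, the regulatory subunit of calcineurin, had 1.29 ± 0.34 and -0.67, and lost its footprint call without AT2 library 3 or any 1 LUAD library (adjusted p from 0.0574 to 0.0872).

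Some footprint changes had no RNA counterpart past the test. Srm, spermidine synthase (chromosome 4, 148591513 to 148594619), stood at 44.5, 70.7 and 83.2 CPM in AT2 and at 6.09, 6.41, 9.57 and 14.5 CPM in LUAD in footprints (log2 fold change -2.85 ± 0.39, adjusted p = 0.0023) and at 100.2, 77.9 and 187 CPM in AT2 and 117, 111, 251 and 246 CPM in LUAD in RNA (0.58, adjusted p = 0.296). Its RNA groups overlapped. Lars2, the mitochondrial leucyl-tRNA synthetase, fell from 1586 ± 447 to 555 ± 194 CPM in footprints and had an RNA log2 fold change of 0.25 (adjusted p = 0.83), with RNA levels of 4119, 2922 and 4739 CPM in AT2 and 7617, 428, 8673 and 1965 CPM in LUAD. Its footprint call was lost without AT2 library 3 (adjusted p = 0.0506). Kcnn3, which passed in both, differed by -3.39 in footprints and -1.08 in RNA (adjusted p = 0.0266). Get4, which helps tail-anchored proteins into membranes, had 0 AT2 footprint counts against 224 in LUAD, at least 12.6-fold higher, with an RNA log2 fold change of 0.13 (adjusted p = 0.739). Its footprint call was lost with the replicate number as a block (adjusted p = 0.113). The gene sums hold only transcripts with a listed ORF, and 4187 of the 7379 listed genes come from LUAD lists alone, so a gene whose AT2 footprints fall on an unlisted transcript reads as 0. The RNA sums hold the same transcripts. In them Get4 stood at 70.7, 80.5 and 135 CPM in AT2 and 88.7, 77.7, 125.9 and 123.1 CPM in LUAD. The part of unlisted transcripts in the 0 of Get4 was not tested. Whether the 2 assays differ in these genes was not tested here as an interaction.

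**Figure D4:**
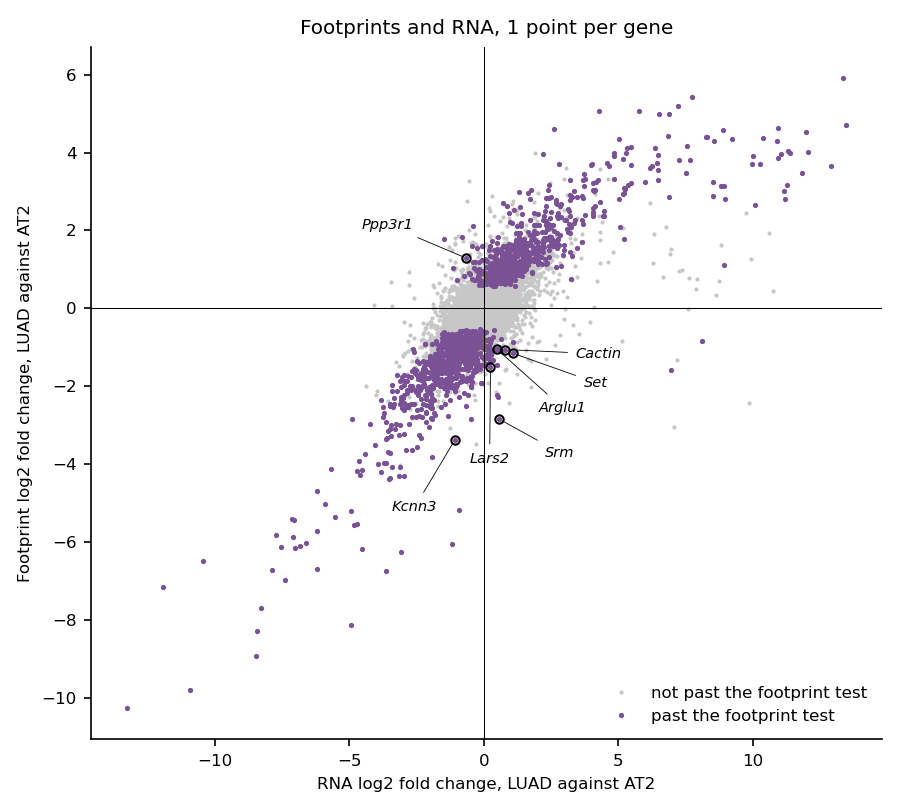
Footprint log2 fold change against RNA log2 fold change for the 6655 genes with more than 3 footprint counts in each group, LUAD against AT2, with 1396 genes past the footprint test in purple. Points follow the diagonal, and the 7 circled genes lie off it, with Arglu1, Cactin and Set lower in footprints and higher in RNA and Ppp3r1 the other way round. RNA values beyond about 5 in size mostly rest on genes near 0 in 1 RNA group.

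The chromosome of a gene also went with its direction, a view chosen after the data were seen. Of 384 tested genes on chromosome 4, 115 fell (29.9%) and 2 rose (0.521%), and the median log2 fold change was -0.63 against 0.02 on the other chromosomes. In RNA 155 of these genes fell and 16 rose, with a median of -0.56. Of all genes tested in RNA 18.1% fell and 19.1% rose. A log2 fold change below 0 was seen in 308 of the 384 genes (80.2%), and in 49.1% of the other genes. All 4 LUAD libraries lay below all 3 AT2 libraries for 149 of the 384 (38.8%, against 16% elsewhere). They lay above all 3 AT2 libraries for 11 (2.86%, against 19.4% elsewhere). On the log2(CPM + 1) scale the chromosome's median, set against the AT2 mean of each gene, was -0.52 to -0.56 in the 4 LUAD libraries and 0 to 0.03 in the AT2 libraries. In bins of 10 Mb the median was below 0 in all 16 bins, from -0.25 to -1.01. A promoter sequence was at hand for 5389 of the tested genes (79.1%), none of them on chromosome 18. These genes were split into 3 equal bins of promoter GC content, with 93, 112 and 104 genes of chromosome 4. The chromosome 4 medians were -0.56, -0.63 and -0.76, and those of other chromosomes 0.05, -0.05 and 0. Genes named above that lie on chromosome 4, all lower, include Hspg2, Agrn, P3h1, Plod1, Epha2, Fuca1, Aco1 and Srm. Hdac1, a histone deacetylase (chromosome 4, 129516104 to 129542646), stood at 237, 329 and 376 CPM in AT2 and at 106, 92.3, 128 and 109 CPM in LUAD (log2 fold change -1.53 ± 0.21, adjusted p = 0.0023), and Creb3, a membrane-bound transcription factor, fell from 181 ± 26.2 to 50.8 ± 4.77 CPM. The 2 genes that rose were Cdkn2a, the locus of the p16 and p19 inhibitors (chromosome 4, 89274473 to 89294619), from 75.3 ± 17.3 to 425 ± 90.7 CPM, and Pdp1, the phosphatase that activates pyruvate dehydrogenase, from 5.17 ± 1.75 to 16.7 ± 2.18 CPM. The call of Pdp1 was lost without LUAD library 2, 3 or 4 (adjusted p from 0.0685 to 0.0899).

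**Figure D5:**
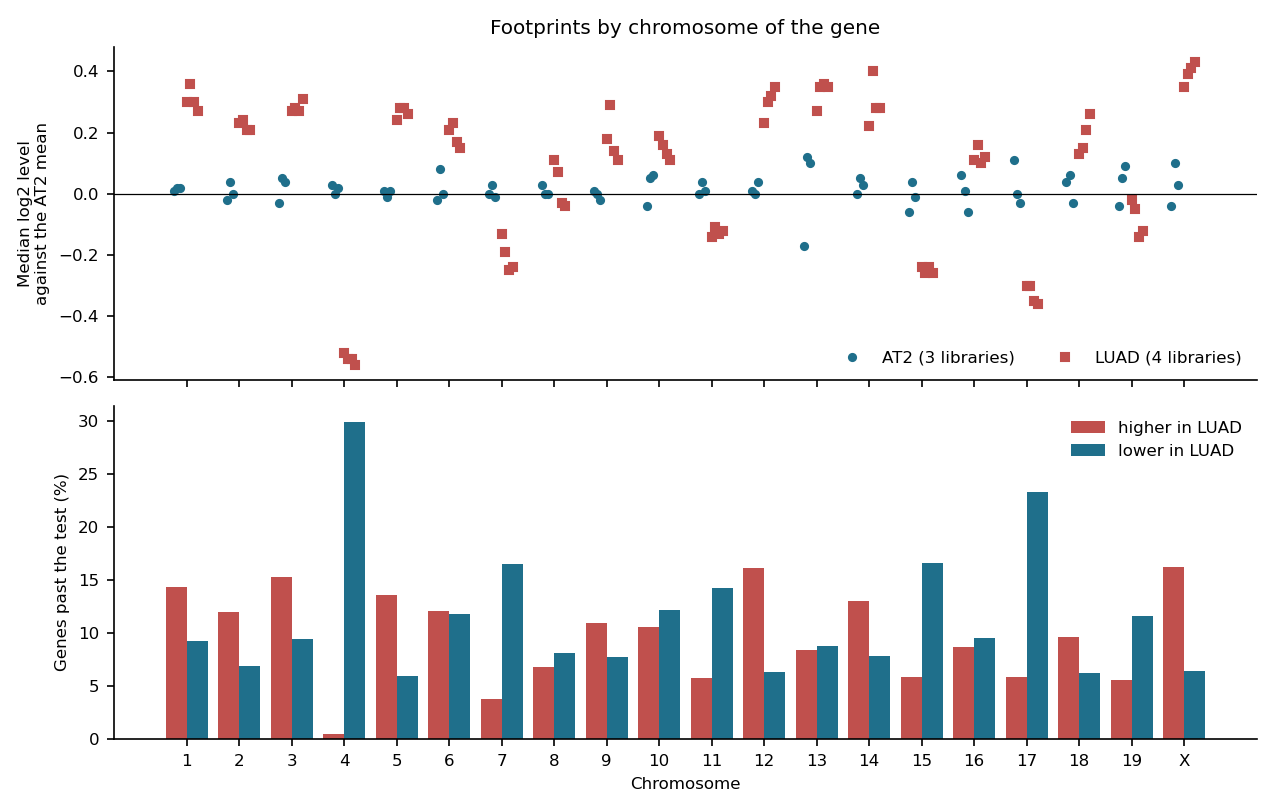
Above, the median over genes of each chromosome of log2(CPM + 1) minus the gene's AT2 mean, with 1 point per library. Below, the share of tested genes on each chromosome higher and lower in LUAD. Chromosome 4 has all 4 LUAD libraries between -0.52 and -0.56 and 29.9% of its genes lower, and chromosome 17 follows with 23.3%.

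The lean of chromosome 4 was present without each library in turn, with a median from -0.53 to -0.63 and 74 to 138 lower calls against 1 to 9 higher ones. Without LUAD library 2, 3 or 4 the lower calls were 77, 74 and 75. With scaling on all transcripts the median was -0.46, with 89 lower and 4 higher calls, and with library set 2 alone it was -0.58. Chromosome 17 followed, with 80 of 343 genes lower (23.3%), 20 higher and a median of -0.44, then chromosome 15 with 48 of 290 lower and -0.34 and chromosome 7 with 78 of 472 lower and -0.31. More genes were higher than lower on chromosomes 1, 2, 3, 5, 6, 9, 12, 14, 18 and X. Chromosomes 5, 12 and X had 64 against 28 of 469, 38 against 15 of 236 and 33 against 13 of 204. Their medians were 0.18, 0.21 and 0.33. Chromosome 13 had a median of 0.29 with 21 higher and 22 lower. The cause of the lean by chromosome was not tested.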

How the data were processed

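Footprint and RNA tables held transcript-level estimated counts and TPM that the authors made with kallisto, per the submitters' processing notes. No value printed here comes from the TPM columns of the deposited tables. The deposited ORF lists give P-site counts per ORF, and per the file headers they pair transcript IDs with gene names. The build was mm10, per the submitters' processing notes. The sources used here do not give tool versions or the use of strand.

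Of 118489 transcripts 22509 were paired with 7379 genes, and their estimated counts were summed per gene and rounded. AT2 (n = 3) and LUAD (n = 4) were compared per assay with the quasi-likelihood test of edgeR 4.0.16 under R 4.3.3, robust, after filterByExpr and TMM scaling; p-values were adjusted over all genes tested (Benjamini-Hochberg), with a threshold of 0.05. DESeq2 1.42.0 served as an alternative, and the fit was tested on simulated data. Counting intervals are at 95%, and a group at 0 was set to a floor of 3 counts. Gene positions are RefSeq GRCm38.p6.

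The families and gene lists were chosen with earlier results of these data known, so no list has a test of its own. Genes were named if among the 15 per direction with the largest fold changes or highest levels, or the 3 per direction leading a family, without overlap between groups, with a mean of at least 50 counts (20 for families) in the higher group; genes with the highest levels needed a log2 fold change of at least 1. Lists of lung identity, p53 and cell cycle genes were left out of the first 2 parts. Some results are not reported here. Of 139 genes named, 46 fall outside the rule and were chosen after their values were seen: Abcb1b, Ano1, Arglu1, Aspa, Cactin, Cd14, Cd81, Cdkn2a, Ckb, Col4a1, Col4a2, Cpa4, Ctsd, Ctsz, Duoxa2, Efemp1, Elf3, Erbb2, Ets1, Gas6, Get4, Gsta4, H2-D1, Hip1, Hk2, Homer2, Igf1r, Kcnn3, Krt7, Lama5, Lamb1, Lamc1, Lgals1, Met, Mrc1, Myh10, Nid1, Nrp2, P4ha1, Pkm, Ppp3r1, Prnp, Procr, Scarb2, Set and St3gal1.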

Additional observations from a re-analysis of the deposited data

Results flagged for a closer look

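LUAD library 1 held 4803129 estimated counts, against 13338402 to 14249573 in the other LUAD libraries. It also stood apart from the other 3 LUAD libraries in 5 of the genes named above. Lgals1 was at 442 CPM there and at 514 to 520 CPM in the others, Slco2a1 at 3.81 against 1.77 to 1.97 CPM, and St8sia6 at 12.7 against 10 to 10.2 CPM. Dpp4 (0.254 CPM) and Hspb8 (0.761 CPM) had LUAD counts in that library only. In these 2 genes the gap fills the whole range because the other 3 libraries are at 0. Each gap was large for the range of its group, and 6 of the 140 values looked at, the depth among them, were marked in this way. The marked values were all of LUAD library 1. By chance the rule marks about 1 in 20 groups of 4 independent values. Genes here share the same 4 libraries, and some were chosen after their values were seen. That rate therefore cannot tell whether 6 marks are more than chance gives. Every value of these genes lay on the same side of the AT2 libraries.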

How the results depend on the processing

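Of 132 called genes named, 119 stayed past the test under every alternative that tested them, and 10 lost the call without 1 library. Genes without an ORF in an AT2 list were not tested in the fit limited to such genes. Cdh13, Get4 and Krt23 lost it with the replicate number as a block alone (adjusted p = 0.075, 0.113 and 0.0553). Depth was lowest in the AT2 libraries, and a gene near 0 there has a wide counting interval. Genes called in footprints numbered 2853 with library set 2 alone (1392 higher, 1461 lower), a choice made after seeing the data. With the library set as a term they numbered 2873 (1413 and 1460, and 2112 also called in RNA). Among the 3039 genes with an ORF in an AT2 list 709 were called (333 and 376, with 508 in RNA). DESeq2 called 1016 higher, and 1441 of the 1447 genes were called in the same direction by it. Without each library in turn the calls ran from 838 to 1894 (358 to 926 higher, 480 to 968 lower, 659 to 1083 also in RNA). Lamb1 changed sign with library set 2 alone, to -0.25 (adjusted p = 0.0199). The cause was not tested for any of these moves.

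With the replicate number as a replicate block 931 genes were called, 501 of them lower, and 883 of the 1447 were called in the same direction. Deviations from the group means correlated at 0.37, -0.30 and 0.30 between libraries of the same number. These signs follow the 2 library sets, so the values cannot show whether the numbers mark pairs. The main fit did not take the numbers as pairs.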
